A study of Mus musculus with 4 samples.

Results

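The genes described here are those of the integrated stress response and of cytosolic tRNA charging: transcription factors around ATF4, their known targets, enzymes of serine, proline and asparagine synthesis and of mitochondrial one-carbon metabolism, and the cytosolic aminoacyl-tRNA synthetases. They were matched by gene symbol to a list of 45, and the rule uses no measured value. All 45 are in the deposited table and 42 have a base mean, out of 12578 genes with one. Stc2, Vldlr and Slc7a3 carry no value. Of the 42, 40 reached a base mean of 10, the minimum for testing, and Fgf21 and Gdf15 did not.

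The groups were MC38/gp100 cells given 1 µM GSK3368712 for 5 days and the same cells given its solvent, DMSO, for as long. GSK3368712 blocks the type I arginine methyltransferases (PRMTs), which add asymmetric dimethyl marks to arginines of proteins. MC38 is a mouse tumour line from a carcinogen-induced colon adenocarcinoma, and gp100, the product of Pmel, is an antigen of melanocytes. Stranded mRNA libraries were sequenced, 2 per group, named A and B by the letters that end the table's column headings. Whether a group's libraries came from different cultures is not in the labels, so p-values measure only the spread between libraries, which may be technical.

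In the integrated stress response, kinases that sense amino acid shortage, endoplasmic reticulum stress, haem shortage or double-stranded RNA phosphorylate the translation factor eIF2. General translation then slows, while the ATF4 message is translated more, because short reading frames ahead of its coding frame are bypassed. ATF4 pairs with C/EBP proteins and switches on genes for amino acid uptake and synthesis, tRNA charging and, under lasting stress, cell death. The level of the Atf4 message therefore need not follow the amount of ATF4 protein, which was not measured here.

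The response element that ATF4 and its C/EBP partners bind has the core TGATGNAA. It was searched on both strands of RefSeq promoter windows (GRCm38.p6, from 250 bases before to 50 after each start). Of the 45 genes, 36 had a promoter in the table, with 40 windows in all. The core stood in 13 of these 40 windows (32.5%), against 3.97% of all 32851 windows and 2.19% of the 8622 windows of tested genes. The list holds known ATF4 targets, so a raised share was built into its choice and is no result of these data. The genes were Atf3, Chac1, Trib3, Yars, Asns, Gars, Fgf21, Nupr1, Aars, Pycr1, Iars, Tars and Vldlr. The cyclic AMP response element TGACGTCA was found in 1 of the 40 windows (2.5%), that of Ppp1r15a, against 1.79% of all windows and 2.92% of those of tested genes. The endoplasmic reticulum stress element (ERSE) was found in 0 of 40, against 0.119% of all windows and 0.139% of those of tested genes. The stretches below come from tested genes with full values in the text and a match ahead of the start. They are shown because genes with the same core differed in their readout. Each is 60 bases long and reads 5′ to 3′ on the strand of the gene, with the match in capitals. In Chac1, Aars and Tars the core lies on the other strand, so the capitals show its reverse complement.
Chac1, chr2:119351023-119351082, plus strand, match 193 bases before the start: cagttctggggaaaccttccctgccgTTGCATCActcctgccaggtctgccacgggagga
Asns, chr6:7693199-7693258, minus strand, match 23 bases before the start: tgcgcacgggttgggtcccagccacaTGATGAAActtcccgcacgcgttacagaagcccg
Aars, chr8:111033704-111033763, plus strand, match 112 bases before the start: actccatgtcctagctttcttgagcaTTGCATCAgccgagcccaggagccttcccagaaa
Tars, chr15:11399640-11399699, minus strand, match 15 bases before the start: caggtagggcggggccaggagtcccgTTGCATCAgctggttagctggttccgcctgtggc
Ppp1r15a, chr7:45526247-45526306, minus strand, cyclic AMP response element 12 bases before the start: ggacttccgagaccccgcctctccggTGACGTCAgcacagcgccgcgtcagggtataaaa

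The table gives no counts per library, so whole reads were worked back from the base means (a base mean is the average over the 4 libraries of reads divided by a size factor). They were recovered for 12575 genes, leaving out 3 with no unique solution, and came to between 1000139 and 1096033 reads per library. The median gene had a base mean of 22.6. These totals are low, and they are reads counted at genes, not reads sequenced. Values below are normalised reads, that is recovered reads divided by the authors' size factors. The sources used here do not state how the authors' counting treated strand, and of the 20 genes of highest base mean 18 have an exon opposite an exon of another gene. Such an overlap was annotated at 11 of the 42 genes (26.2%), against 33.5% of all genes with values. Reads at those 11 cannot be told apart from reads of the neighbour, which is named beside them. The unknown strand setting applies to the whole table, so genes with no annotated overlap share this limit. Whether their counts hold all of their own reads was not tested. Of 8 epithelial markers, Krt8 alone reached the minimum for testing. Few reads were counted at Krt19, Cdh1 and 3 claudin genes, which stayed under the minimum, and Epcam and Krt18 had no value. With the strand setting unknown, these counts cannot decide whether the cells expressed the epithelial markers. The minimum for testing was reached by 4 of 6 fibroblast, 2 of 6 leukocyte, 0 of 4 endothelial and 1 of 4 melanocyte markers (Pmel), and none of the tested markers was called. Among tested markers, Krt8 lies opposite Gm36026, Pdgfra opposite Gm42802 and Gm42803, Csf1r opposite Hmgxb3 and Pmel opposite Dgka and Cdk2. Reads at these markers cannot be told apart from reads of the neighbours. The 4 fibroblast markers with values summed to 933 and 828 normalised reads in inhibitor libraries A and B, against 694 and 708 in DMSO libraries A and B. Most of that sum was Col1a1, with 759 and 668 with the inhibitor, against 520.3 and 537 in DMSO. Pdgfra lay the other way, with 42.2 and 53.1 with the inhibitor, against 65.5 and 72.0 in DMSO, and the groups of Pdgfrb and Dcn overlapped. The part of these markers in the results below was not tested. In bulk RNA, fewer cells of a type and less RNA per cell cannot be told apart.

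The comparison of inhibitor with DMSO asks whether these transcripts changed over 5 days of type I methyltransferase inhibition. Reads at Chac1 were higher with the inhibitor, but the call was lost with no abundance minimum and in the authors' deposited results. Those at Atf4, Ddit3, Atf5, Asns, Trib3, Phgdh and the amino acid transporter genes had group means within 10% of each other. Most tRNA synthetases lay slightly lower with the inhibitor, and no synthetase passed the test. In all, 1 of 40 tested genes was called higher (2.5%) and 0 were called lower (limma on the deposited log2 values, p adjusted over all 8562 tested genes, threshold 0.05), while 1.3% of all tested genes were called higher, 0.841% lower and 2.14% in either direction. At an unadjusted p under 0.05, 2 of the 40 were higher and 5 lower (17.5%), against 12.2% of all tested genes in either direction. In the authors' deposited table (DESeq2) 39 of the genes have an adjusted p, the lowest being 0.40 at Chac1, and none passed, against 0.574% of the 4527 genes with one.

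The median log2 fold change of the 40 genes was -0.08, with 14 positive and 26 negative values, beside a median of 0.01 over all tested genes. Fold changes are of inhibitor over DMSO on log2 of normalised reads plus 1, a scale that understates changes of low genes. The median size of the group difference, leaving out its sign, was 0.14, against 0.19 over all tested genes. The median difference between libraries A and B was 0.15 within the inhibitor group and 0.18 within DMSO. Over all tested genes these differences between libraries were 0.22 and 0.23. The groups did not overlap in 20 of the 40 genes (50%, against 41.2% of all tested genes). Both inhibitor libraries lay below both DMSO libraries in 14 (35%, against 20.5% of all tested genes) and above them in 6 (15%, against 20.7%). The 95% interval of the fold change lay within 2-fold in either direction for 38 of the 40, the exceptions being Chac1 and Ddit4, and within 1.5-fold for 27. Over all tested genes 77.3% had an interval within 2-fold. The median base mean was 150 for the 40 genes and 43.0 for all tested genes. Intervals, separation of groups and small p-values all depend on read depth, so these shares are not like for like. These intervals draw mostly on a spread shared across genes (limma's prior counted for 144 degrees of freedom, the residuals for 2).

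**Figure D1:**
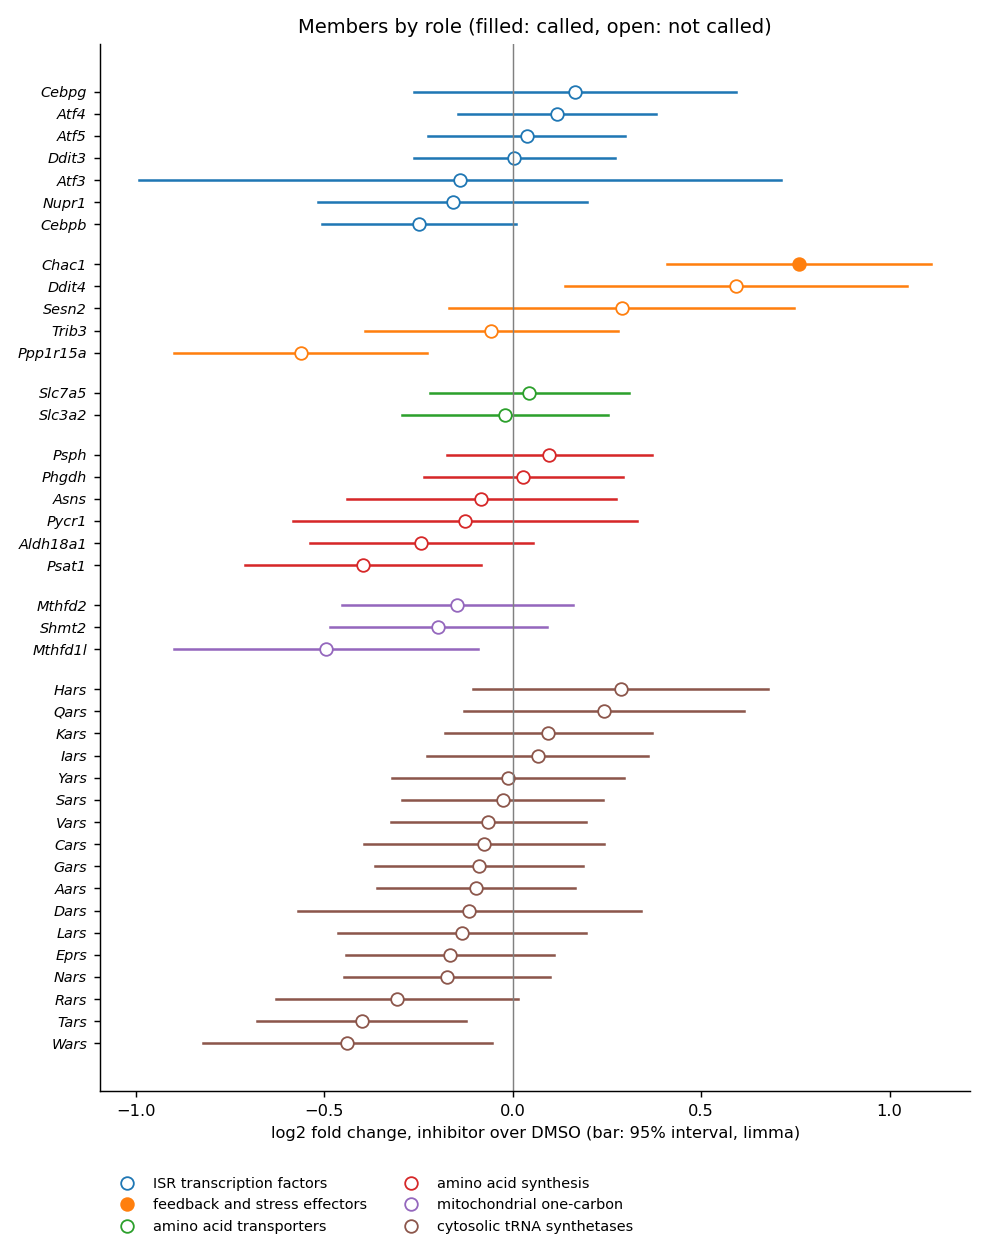
Log2 fold change (inhibitor over DMSO, x axis) of the 40 tested genes, grouped by role, with 95% intervals from limma; filled points were called and open points were not. Chac1 is the one filled point, at 0.76, and most intervals of the other genes cross 0.

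The 7 tested transcription factors of the response had a median log2 fold change of 0.00, and none passed. Atf4 (ENSMUSG00000042406, mm10 chromosome 15, 80255184 to 80257541, plus strand) had 456 and 469.7 normalised reads in inhibitor libraries A and B, against 455 and 399.8 in DMSO libraries A and B. Both inhibitor libraries were higher, but inhibitor A exceeded DMSO A by less than the 2 DMSO libraries differed from each other. The log2 fold change was 0.12 ± 0.13 (SE; limma, adjusted p = 0.81), with a 95% interval of -0.15 to 0.38. Ddit3 encodes CHOP, the factor that couples lasting stress to cell death. It had 360.1 and 406 normalised reads with the inhibitor, against 362 and 401 in DMSO, so that the log2 fold change came to 0.00 ± 0.13 (SE; limma, adjusted p = 0.99), with an interval of -0.26 to 0.27. Library A was the lower one in both groups, and the groups overlapped. Ddit3 shares 81 exon bases with the methionyl-tRNA synthetase gene Mars and Gm4189 on the other strand, and Mars had a log2 fold change of 0.00 ± 0.14.

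Atf5, a factor translated in the same way as ATF4, had 524 and 499.7 normalised reads with the inhibitor, against 467 and 532 in DMSO, and the groups overlapped (opposite Il4i1 and Nup62). Cebpb, a C/EBP partner of ATF4, had 601 and 631 normalised reads with the inhibitor, against 746 and 717 in DMSO (opposite Tmem189). Both inhibitor libraries were lower, and the log2 fold change of -0.25 ± 0.13 did not pass (limma, adjusted p = 0.44). Cebpg, which pairs with ATF4 as well, had 57.6 and 58.1 normalised reads, against 43.1 and 61.6 in DMSO (opposite Gm45095). Its inhibitor libraries lay between the DMSO libraries. The remaining factors, Atf3 and the stress-induced coregulator gene Nupr1, had log2 fold changes of -0.14 ± 0.43 and -0.16 ± 0.18 with overlapping groups. Per kilobase of exon, the mean over all libraries ran from 6.09 normalised reads at Atf3 to 448 at Cebpb, with 189 at Atf4, 223 at Ddit3 and 254 at Atf5. None of the 7 had an unadjusted p under 0.05 or passed in the authors' deposited table (DESeq2).

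The feedback and effector genes spread the most. Chac1 (ENSMUSG00000027313, chromosome 2, 119351229 to 119354381, plus strand) encodes a gamma-glutamylcyclotransferase that breaks down glutathione and is a target of ATF4 and CHOP. Its whole reads were 106 and 141 with the inhibitor, against 90 and 63 in DMSO. Normalised, these are 109 and 141 with the inhibitor and 80.7 and 65.8 in DMSO. Both inhibitor libraries exceeded both DMSO libraries, and no exon of another gene lies opposite. The mean was 125 ± 22.7 with the inhibitor and 73.3 ± 10.6 in DMSO (SD, n = 2 each), a ratio of 1.71. The log2 fold change was 0.76 ± 0.18 (limma, adjusted p = 0.0034), with an interval of 0.41 to 1.11. The call was lost without inhibitor B (limma, adjusted p = 0.36), without DMSO B (0.064) and with no abundance minimum (0.20), and the authors' deposited table gives Chac1 an adjusted p of 0.40. It was kept in 8 of 12 alternatives, and over the 12 the adjusted p ran from 0.0029 to 0.40 and the log2 fold change from 0.58 to 0.94.

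Ppp1r15a encodes GADD34, which brings protein phosphatase 1 to eIF2 and so ends the response. It had 93.6 and 80.1 normalised reads with the inhibitor, against 127 and 129 in DMSO. Both inhibitor libraries were lower, with means of 86.9 ± 9.55 with the inhibitor and 128 ± 1.44 in DMSO (SD, n = 2 each). Its log2 fold change of -0.56 ± 0.17 missed the threshold (limma, adjusted p = 0.051). At a minimum base mean of 50, where 4.43% of 3819 genes were called, it passed (limma, adjusted p = 0.033), and over the 12 alternatives the adjusted p ran from 0.033 to 0.85. Ppp1r15a shares 12 exon bases with Tulp2 on the other strand, which had a log2 fold change of -0.65 ± 0.34.

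Ddit4, also known as REDD1, which restrains the growth kinase complex mTORC1, had 61.7 and 55.1 normalised reads with the inhibitor, against 44.0 and 33.4 in DMSO. The groups did not overlap, but the log2 fold change of 0.59 ± 0.23 did not pass (limma, adjusted p = 0.21). Trib3, a pseudokinase that restrains ATF4 and CHOP, had 101 and 108 normalised reads with the inhibitor, against 120.2 and 98.1 in DMSO. Its groups overlapped, at -0.06 ± 0.17 on the log2 scale (limma, adjusted p = 0.94). Sesn2, a leucine sensor of the mTORC1 pathway, stood at 0.29 ± 0.23 on the log2 scale (limma, adjusted p = 0.70). Of the 5 tested genes of this group 1 was called higher (20%, against 1.3% of all tested genes) and 0 lower. At an unadjusted p under 0.05 there were 2 higher and 1 lower (60%, against 12.2% of all tested genes). Chac1 and Trib3 both carry the TGATGNAA core, and their log2 fold changes were 0.76 and -0.06.

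**Figure D2:**
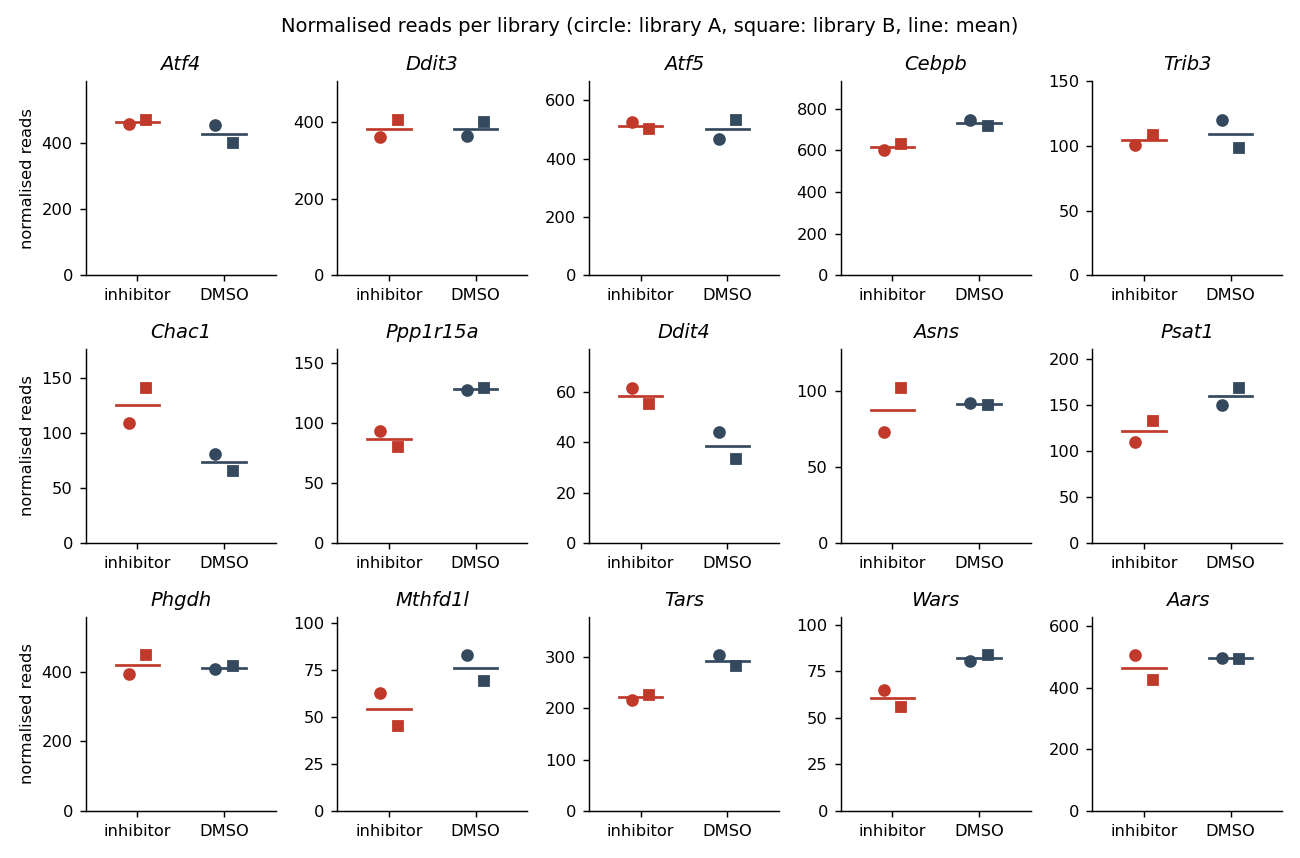
Normalised reads (y axis, from 0) in each inhibitor and DMSO library for 15 of the genes; circles are library A, squares library B and lines the group means. Chac1 and Ddit4 lie higher with the inhibitor, Ppp1r15a, Psat1, Mthfd1l, Tars, Wars and Cebpb lower, and of these Chac1 alone was called.

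The secreted factors of the response were at the limit of detection. Fgf21, a hormone released under amino acid shortage, had 0 and 1 whole reads with the inhibitor, against 1 and 3 in DMSO. Gdf15, a stress cytokine that lowers appetite, had 1 and 2 whole reads with the inhibitor, against 1 and 1 in DMSO. A difference was not detectable at these read counts for either gene.

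The transporter pair for large neutral amino acids had close group means. Slc7a5, the light chain LAT1, had 423 and 409 normalised reads with the inhibitor, against 379 and 428 in DMSO (log2 fold change 0.04 ± 0.13; limma, adjusted p = 0.95). Slc3a2, the heavy chain that brings it to the membrane, had 296 and 273 normalised reads, against 279 and 299 in DMSO (log2 fold change -0.02 ± 0.14; limma, adjusted p = 0.98). In both genes the groups overlapped, and the 95% intervals of the log2 fold change ran from -0.22 to 0.31 and from -0.29 to 0.25.

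Among enzymes of amino acid synthesis, 0 of 6 were called in either direction. Psat1 alone had an unadjusted p under 0.05 (16.7%, against 12.2% of all tested genes). Asns, asparagine synthetase, had 73.0 and 102 normalised reads with the inhibitor, against 92.4 and 90.8 in DMSO. The inhibitor libraries lay on either side of the DMSO libraries, at -0.08 ± 0.18 on the log2 scale (limma, adjusted p = 0.94). The serine pathway runs from Phgdh through Psat1 to Psph, and its 3 genes differed in their values. Phgdh, the first enzyme, had 393 and 447 normalised reads, against 406 and 415 in DMSO (log2 fold change 0.03 ± 0.13). Psat1, the aminotransferase that follows, had 110.1 and 133 normalised reads with the inhibitor, against 151 and 169 in DMSO. Both of its inhibitor libraries were lower, and the log2 fold change of -0.40 ± 0.16 did not pass (limma, adjusted p = 0.22).

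Psph, the phosphatase that completes serine, had 1854 and 1979 normalised reads with the inhibitor, against 1565 and 2049 in DMSO. It shares 452 exon bases with the chaperonin gene Cct6a on the other strand, which carries no value, so these reads cannot be assigned to Psph. In proline synthesis, Aldh18a1, the first enzyme, had 176 and 153 normalised reads, against 195 and 194 in DMSO (log2 fold change -0.24 ± 0.15; limma, adjusted p = 0.54). Pycr1, the last enzyme, had a log2 fold change of -0.13 ± 0.23 with overlapping groups.

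All 3 mitochondrial one-carbon genes, which turn serine into formate, had both inhibitor libraries below both DMSO libraries, as did 20.5% of all tested genes, and none passed. Shmt2, which splits serine, had 198 and 188 normalised reads with the inhibitor, against 237 and 207 in DMSO (log2 fold change -0.20 ± 0.15; opposite Ndufa4l2). Mthfd2, the dehydrogenase that follows, had 133 and 151 normalised reads, against 161 and 153 in DMSO (-0.15 ± 0.16). Mthfd1l, which releases formate, had 62.8 and 45.1 normalised reads, against 82.5 and 68.9 in DMSO (-0.50 ± 0.20; limma, adjusted p = 0.25). It alone of the 3 had an unadjusted p under 0.05 (33.3%, against 12.2% of all tested genes). The separation was slight at Mthfd2, where inhibitor B and DMSO B nearly met. Summed over the 3 genes, normalised reads were 393 and 385 with the inhibitor, against 480.0 and 429 in DMSO. The ratio was 0.855, against 1.03 over all genes with values. Over all genes the sums were 1037610 and 1041700 with the inhibitor, against 983299 and 1043960 in DMSO A and B. DMSO B thus lay above both inhibitor libraries, and the median log2 fold change of all tested genes was 0.01.

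The 17 cytosolic tRNA synthetases had a median log2 fold change of -0.09, with 4 positive and 13 negative values. None was called in either direction by limma or in the authors' deposited table (DESeq2). At an unadjusted p under 0.05 there were 2, Tars and Wars, both lower (11.8%, near the 12.2% of all tested genes). Summed over the 17 genes, normalised reads were 3875 and 3703 with the inhibitor, against 4048 and 4016 in DMSO. The ratio was 0.940, against 1.03 over all genes with values. Abundant genes weigh most in such sums, and over all genes only DMSO A lay below the inhibitor libraries. Both inhibitor libraries lay below both DMSO libraries in 7 of the 17 (Eprs, Gars, Nars, Rars, Tars, Vars and Wars) and above in 2 (Hars and Qars), against 20.5% and 20.7% of all tested genes.

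Tars, the threonine enzyme (chromosome 15, 11382301 to 11399665, minus strand), had 217 and 226 normalised reads with the inhibitor, against 303 and 283 in DMSO. The gap between the groups exceeded the spread within each, with means of 222 ± 6.54 with the inhibitor and 293 ± 14.4 in DMSO (SD, n = 2 each). The log2 fold change was -0.40 ± 0.14 and did not pass (limma, adjusted p = 0.12), with an adjusted p from 0.068 to 0.80 over 12 alternatives. Wars, the tryptophan enzyme, which is also known as an interferon-inducible gene, had 64.8 and 56.1 normalised reads, against 80.7 and 83.5 in DMSO. Its inhibitor libraries were both lower, at -0.44 ± 0.19 on the log2 scale (limma, adjusted p = 0.31).

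The synthetase genes with the highest base means, which are not corrected for length, were Vars, Aars and Sars, which charge valine, alanine and serine tRNAs. Vars had 656 and 636 normalised reads with the inhibitor, against 679 and 672 in DMSO, and although the groups did not overlap the log2 difference was -0.06 ± 0.13 (limma, adjusted p = 0.92). Aars had 504 and 424 normalised reads, against 496 and 493 in DMSO, and the inhibitor libraries lay on either side (opposite Gm24103). Sars had 382 and 377 normalised reads, against 373 and 399.8 in DMSO, a log2 fold change of -0.03 ± 0.13. The other 12 synthetases had log2 fold changes between -0.31 at Rars and 0.29 at Hars. Hars lies opposite Hars2, the similar mitochondrial enzyme gene, with which it shares 195 exon bases, so its value is uncertain. Cars lies opposite Gm15580 and Yars opposite C77080.

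**Figure D3:**
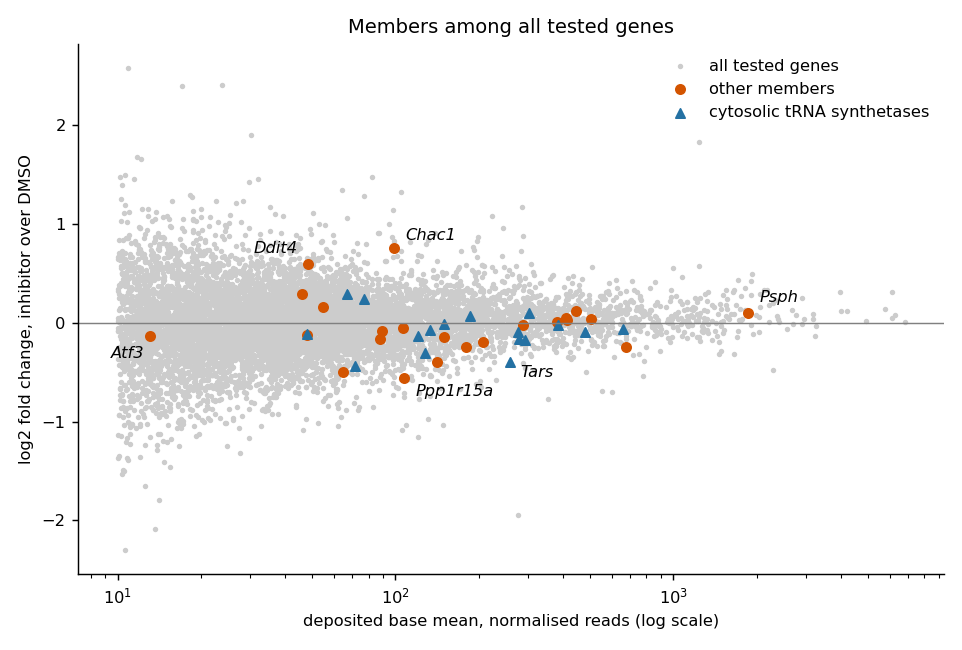
Deposited base mean (x axis, log scale) against log2 fold change (inhibitor over DMSO, y axis) for all tested genes (grey), the tRNA synthetases (blue triangles) and the other members (orange circles). The 40 genes lie between -0.56 and 0.76, and Chac1 is the highest of them.

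Most tested genes with the TGATGNAA core in their promoter window had a negative log2 fold change, as did 26 of the 40 tested genes. Of the 13 genes with the core 11 were tested, 2 with a positive log2 fold change (Chac1 and Iars) and 9 with a negative one. The median of these 11 was -0.09. The 21 tested genes with a promoter in the table and no such core had a median of -0.02. Among the promoter stretches printed above, Chac1 stood at 0.76, Asns at -0.08, Aars at -0.10 and Tars at -0.40 on the log2 scale.

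Other genes of the pathway were read from lists of 97 genes, of which 84 were tested, and 0 were called higher and 1 lower, beside the 1.3% and 0.841% of all tested genes. That gene was Ern1, which encodes IRE1, the sensor of another arm of the unfolded protein response. Ern1 had 77.2 and 90.1 normalised reads with the inhibitor, against 136 and 114 in DMSO (log2 fold change -0.57 ± 0.17; limma, adjusted p = 0.046), and the groups did not overlap. The call held in 4 of 12 alternatives and was lost without inhibitor A, inhibitor B or DMSO A, with an adjusted p from 0.019 to 0.84, the highest being that of the authors' deposited table. The remaining 13 tested genes of the IRE1 and ATF6 arms did not pass. The 14 together had a median log2 fold change of -0.00. Of the 14, 1 was higher and 2 lower at an unadjusted p under 0.05 (21.4%, against 12.2% of all tested genes).

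Upstream of ATF4, 0 of 14 tested genes were called, against 2.14% of all tested genes. At an unadjusted p under 0.05, 3 were higher (Eif2ak3, Eif2b4 and Ppp1r15b) and 0 lower (21.4%, against 12.2% of all tested genes). Eif2b4 lies opposite Snx17 and Ppp1r15b opposite Gm26616. The median log2 fold change of the list was 0.07, and -0.07 without genes that have an opposite exon. The list holds eIF2, its kinases, its exchange factor eIF2B, the phosphatase subunit gene Ppp1r15b and Eif2a, a separate initiation factor. Eif2ak3, the gene of the kinase PERK, had 17 and 30 whole reads with the inhibitor, against 12 and 10 in DMSO. It rested on few reads, lies opposite Gm43292 and did not pass (log2 fold change 1.05 ± 0.39; limma, adjusted p = 0.13). Downstream, 0 of 19 other ATF4 targets were called, at a median log2 fold change of -0.08. Of the 19, 1 was higher and 2 lower at an unadjusted p under 0.05 (15.8%). Other one-carbon and amino acid genes gave 0 calls among 13, other genes of the cytosolic synthetase complex 0 among 6, mitochondrial tRNA synthetases 0 among 11 and genes of growth control by mTORC1 0 among 7. At an unadjusted p under 0.05 these lists held 0, 0, 1 and 1 genes, each of them higher. In the authors' deposited table (DESeq2) none of the 57 pathway genes with an adjusted p passed.

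**Figure D4:**
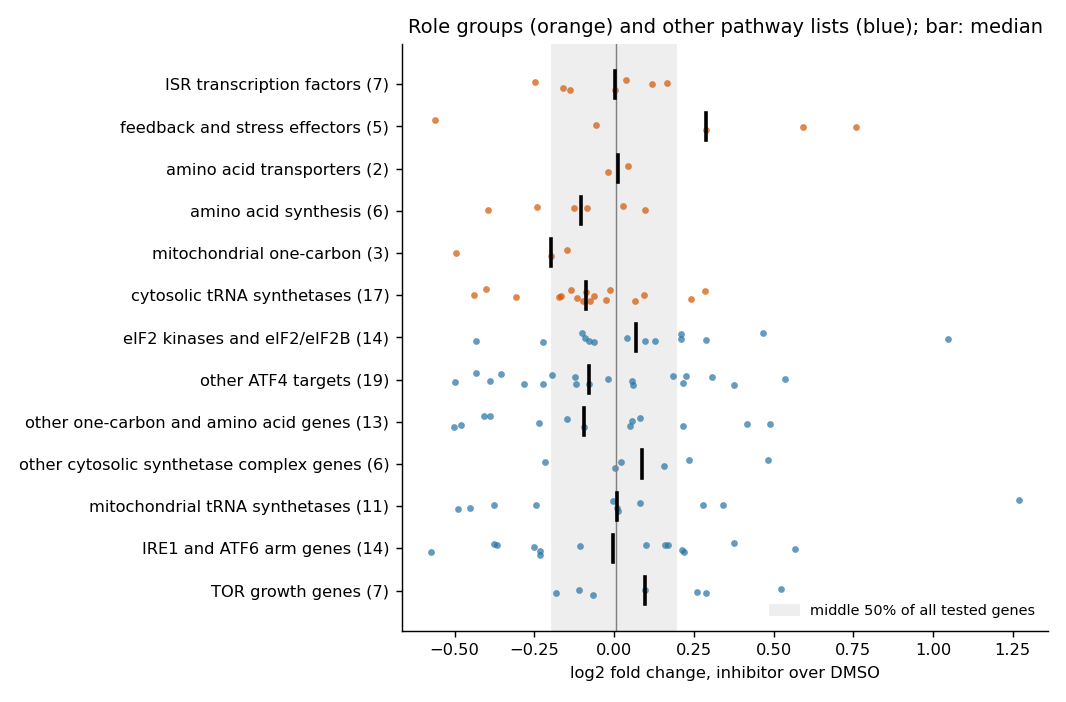
Log2 fold change (inhibitor over DMSO, x axis) of each tested gene by list, with the number of tested genes in brackets and black bars at the medians; the grey band spans the middle 50% of all tested genes (-0.19 to 0.19). Of the 13 medians those of the feedback and stress effectors (0.29, but -0.056 at a base mean of at least 50) and of the mitochondrial one-carbon genes (-0.20) lie outside the band.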

How the data were processed

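Messenger RNA of 4 libraries was profiled. The submitters' processing notes name mm10 as the build and HISAT2 2.1.0, SAMtools 1.2, StringTie 1.3.0 and DESeq2 as tools of the authors, with no roles. The read counter, its strand option and the gene annotation are not stated there. The single deposited table holds log2 values per library, headed logCPM by the authors but behaving as regularised log2 normalised reads. It also holds the authors' base mean (a signal: mean of reads over size factors), log2 fold change, Wald score, p-value and adjusted p-value, per the file headers.

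Whole reads per library were recovered by searching for whole numbers that give each base mean to its 15 printed digits near the deposited fold change. A single solution was found for 12575 of 12578 genes, and the search was tested on simulated data. Calls come from limma 3.58.1 (R 4.3.3, trended variance, group as the only term) on the deposited log2 values of the 8562 genes whose base mean was 10 or more, Benjamini-Hochberg adjusted p under 0.05, two-sided. Here limma's prior counted for 182 degrees of freedom and the residuals for 2. Fold changes, errors and intervals come from limma on log2 of normalised reads plus 1. Reads without molecular identifiers are not independent molecules. Alternatives were other abundance minimums, pseudocounts of 0.5 and 4, limma-voom on recovered reads with TMM scaling (computed by hand) or library totals, leaving out each library, leaving out genes with an opposite exon, and the authors' deposited results.

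Full values are given for genes called, for the 3 of highest base mean and the 2 of largest change (base mean of at least 20) in each role, and for Atf4, Ddit3, Asns, Trib3, Psat1 and Phgdh. Atf3, Nupr1, Sesn2, Pycr1, Rars, Hars, Eif2ak3, Eif2b4, Ppp1r15b, Col1a1 and Pdgfra are named outside this rule, chosen after their values were seen. Members and lists were chosen with earlier results of these data known. Locations and exons come from GENCODE M21 (GRCm38), in which 12570 of the 12578 genes were found. Of 36 member promoters, the first transcribed bases of 29 occur in a GENCODE transcript of the gene on the same strand.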

Additional observations from a re-analysis of the deposited data

How the results depend on the processing

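No paired analysis was possible because the columns carry letters and not the replicate numbers of the labels, so no replicate block could be set. The count of called members (1 higher, 0 lower) became 0 higher with no abundance minimum and in the authors' deposited table, and 1 lower (Ppp1r15a) at a base mean of at least 50. Leaving out each library in turn it ranged from 0 to 1 higher, being 0 without inhibitor B or without DMSO B; the group with a single library was then assumed to vary like the other. Over all genes, 111 higher and 72 lower became 12 and 4 with no minimum, 16 and 10 in the authors' table, 71 higher in limma-voom with library totals, and 42 to 178 higher and 21 to 76 lower when a library was left out (highest without DMSO B and without DMSO A, lowest without inhibitor A).

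The median log2 fold change of the members (-0.08) was -0.12 with library totals (an alternative chosen after seeing the data, as was the value for synthetases, which moved the median of all genes to -0.033), and -0.076 to -0.021 when a library was left out. For the synthetases (-0.09) it was -0.13 with library totals and -0.14 to -0.040 when a library was left out. Without genes that have an opposite exon it was -0.14 for the transcription factors, 0.44 for the effectors and -0.32 for the one-carbon genes. At a base mean of at least 50 it was -0.056 for the effectors. Leaving out a library gave -0.23 to 0.12 for amino acid synthesis and -0.30 to -0.11 for the one-carbon genes.

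The 25 genes with full values were each refitted under every alternative that could be run, 299 settings in all: 271 kept direction and side of the threshold, 12 lost a call (Chac1 4, Ern1 8), 1 gained one (Ppp1r15a) and 15 turned direction, all of genes not called. With library totals these were Ddit3 (-0.032) and Phgdh (-0.009). When a library was left out, the log2 fold change ran from -0.22 to 0.028 for Aars, from -0.32 to 0.16 for Asns, from -0.057 to 0.13 for Atf5, from -0.089 to 0.42 for Cebpg, from -0.082 to 0.089 for Ddit3, from -0.064 to 0.12 for Phgdh, from -0.097 to 0.29 for Psph, from -0.076 to 0.023 for Sars, from -0.078 to 0.038 for Slc3a2, from -0.042 to 0.13 for Slc7a5 and from -0.20 to 0.089 for Trib3. No other call changed. At these read counts, Fgf21, Gdf15 and genes under a base mean of 10 could not be compared, and the intervals of Atf3 and Ddit4 stay wide.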
